A study of Homo sapiens with 6 samples.

Results

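The genes described here encode ligands through which natural killer (NK) cells and T cells recognise stressed or transformed cells, together with the nectins related to them. They are ULBP1, ULBP2, ULBP3, MICA and MICB, ligands of the activating receptor NKG2D, and PVR, NECTIN1, NECTIN2, NECTIN3 and NECTIN4. The 10 genes were chosen by symbol and known function, with earlier results of the vehicle and DOX comparison in these data in view, and all 10 were found among the 19792 genes of the authors' table. The table comes from RNA-seq of BT-549 cells, a human triple-negative breast cancer line, engineered to express an shRNA against WDR5 from a tetracycline-inducible promoter. The 6 libraries are 3 cultures treated with DMSO vehicle and 3 treated with 500 ng/ml doxycycline (DOX), which switches on the shRNA. Both groups carry the shRNA construct, with puromycin as its selection, and whether the cells are 1 clone is not given in the sources used here.

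The value used for each gene is its mean normalized count, the authors' mean over all 6 libraries of read counts corrected for library depth. It pools vehicle and DOX, so it is a level of neither group alone. No value of a single library was analysed, and the level therefore carries no SD and no test. Differences in level between genes are given as ratios of the level per kb of exon, since a longer transcript yields more reads, and whether neighbouring genes in the order differ beyond the spread between cultures was not tested. The authors' own comparison of DOX with vehicle was not used, so no direction of change is given for any gene.

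NKG2D is found on NK cells and cytotoxic T cells. Its ligands are distant relatives of MHC class I molecules that present no peptide. MICA and MICB span the membrane, whereas ULBP1, ULBP2 and ULBP3 are held by a glycolipid anchor, and most normal tissues show little of any of them at the surface. DNAM-1 (CD226), another activating receptor, binds PVR (CD155) and NECTIN2 (CD112), which also bind the inhibitory receptors TIGIT and, for NECTIN2, PVRIG. NECTIN1, NECTIN3 and NECTIN4 are adhesion molecules of the same immunoglobulin family, which bind each other across cell contacts and attach to actin through afadin.

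Among the NKG2D ligands, the MIC genes had by far the highest levels. MICB had a mean normalized count of 1057, above 73.2% of the genes in the table or equal to them. MICA followed at 766, at the 67.7 percentile. The MIC genes together accounted for 90.1% of the summed mean normalized count of the 5 NKG2D ligands among the members, and for 89.1% of their summed level per kb.

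ULBP1, at 157, was the only ULBP gene whose mean normalized count exceeded 100. It lay close to the middle of the table, at the 48.5 percentile, and made up 7.54% of the summed level per kb of the 5 ligands. ULBP3 and ULBP2 had mean normalized counts of 25.2 and 18.4, at the 37.2 and 35.3 percentiles. Per kb, ULBP1 exceeded ULBP3 by 6.03-fold, whereas ULBP2 exceeded ULBP3 by 1.70-fold.

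The remaining NKG2D ligands of the human genome, RAET1E (ULBP4), RAET1G (ULBP5) and RAET1L (ULBP6), are not among the 10 genes and were of low level. RAET1G had a mean normalized count of 44.6, and its level per kb was 2.18 times that of ULBP2. RAET1E was at 23.2 and RAET1L at 2.02. These RAET1 genes held 5.09% of the summed level per kb of all 8 NKG2D ligands, and MICA with MICB held 84.5% of it.

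PVR was the highest of the 10 genes before division by length. Its mean normalized count was 4709, at the 94.0 percentile. NECTIN2, the other DNAM-1 ligand, was at 2558 and the 87.2 percentile, and NECTIN3 was at 2335 and the 86.0 percentile. Per kb, NECTIN2 exceeded PVR by 1.51-fold and NECTIN3 by 2.26-fold. The sum of PVR and NECTIN2, the DNAM-1 ligands, was 1.75 times that of the 5 NKG2D ligands per kb, and 3.59 times without division by length.

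The other nectins were far lower. NECTIN1, which also serves as an entry receptor for herpes simplex virus, had a mean normalized count of 196 at the 50.5 percentile. NECTIN4, an epithelial nectin and the target of an antibody-drug conjugate, was at 2.94, the lowest of the 10 genes and the only one under 10. Per kb, NECTIN2 exceeded NECTIN4 by 803-fold, but with NECTIN4 this low the size of the ratio is uncertain. Of the 10 genes, 6 lay above the table's median of 187 and PVR, NECTIN2 and NECTIN3 were at the 86.0 percentile or higher.

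**Figure D1:**
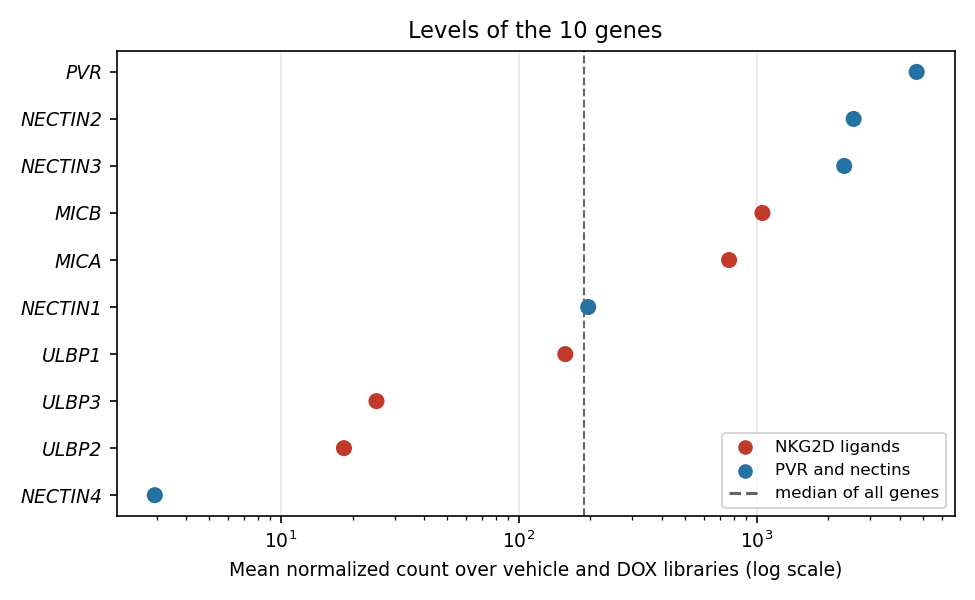
Mean normalized count of each of the 10 genes over the vehicle and DOX libraries together (log axis), 1 point per gene and no error bar because no values of single libraries were analysed. PVR is highest at 4709 and NECTIN4 lowest at 2.94, and the dashed line is the median of all 19792 genes at 187.

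For comparison between genes, levels were set side by side per kb, using the summed length of all exons of each gene in GENCODE 44. On this scale NECTIN2 came first, with a mean normalized count of 684 per kb, and PVR second with 452 per kb. The exons of PVR together cover 10427 bases and those of NECTIN2 3742 bases. MICB followed with 378 per kb, NECTIN3 with 303 per kb and MICA with 199 per kb. A step of 4.07-fold separated these 5 genes from the next, ULBP1, with 48.8 per kb. NECTIN1 had 25.0 per kb and ULBP2 13.8 per kb. ULBP3, whose exons cover 3111 bases against 1335 for ULBP2, had 8.10 per kb, and NECTIN4 was last at 0.852 per kb.

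The order within the upper 5 genes depended on the length used. PVR was above NECTIN2 when levels were divided by the longest coding sequence, with mean normalized counts per kb of 3576 and 1585, and also when they were not divided at all. MICA was above MICB only with the length of the canonical transcript, 1370 bases for MICA and 2416 bases for MICB, which gave 559 and 438 per kb. With each of the 4 lengths, and also without division, the upper 5 genes were PVR, NECTIN2, NECTIN3, MICA and MICB, and NECTIN4 was the lowest.

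**Figure D2:**
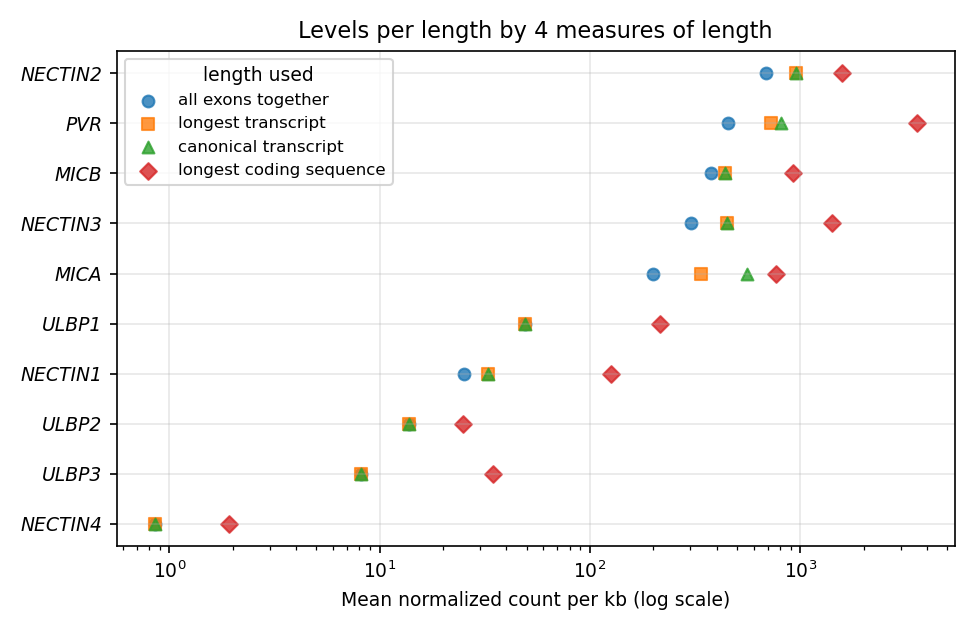
Mean normalized count per kb (log axis) of the 10 genes for 4 measures of length, 1 marker per measure, with genes ordered by the summed length of all exons. The upper 5 genes trade places between measures, whereas NECTIN4 is lowest with each of them.

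Most of the 10 genes lie in small clusters of relatives on GRCh38, here with GENCODE 44 positions. MICA (chr6:31399784-31415315) and MICB (chr6:31494881-31511124) are in the MHC, both on the plus strand and 79.6 kb apart. ULBP2 (chr6:149942014-149949235) and ULBP1 (chr6:149963943-149973715) are on the plus strand of the long arm of chromosome 6, with 14.7 kb between them. ULBP3 (chr6:150061053-150069121) lies on the minus strand 87.3 kb beyond ULBP1. Within this cluster ULBP1 had the highest level per kb, above ULBP2 and RAET1G on one side of it and RAET1L and ULBP3 on the other.

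PVR (chr19:44643798-44666162) and NECTIN2 (chr19:44846175-44889223) are on the plus strand of chromosome 19, 180 kb apart. The genes of this pair were the highest and second highest of the 10 by mean normalized count. NECTIN1 (chr11:119623408-119729200), NECTIN3 (chr3:111070071-111275563) and NECTIN4 (chr1:161070998-161089558) stand alone.

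Relatives within a cluster share sequence, and a read from a shared stretch cannot be assigned to 1 gene with certainty. The coding sequences of ULBP2 and RAET1L, both of 738 bases without the stop codon, were identical at 96.7% of aligned positions. Their longest run without a difference covered 168 bases, from base 571 to the last, and it is shown because reads that fall inside it fit both genes equally well:

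ULBP2 and RAET1L, coding bases 571 to 738: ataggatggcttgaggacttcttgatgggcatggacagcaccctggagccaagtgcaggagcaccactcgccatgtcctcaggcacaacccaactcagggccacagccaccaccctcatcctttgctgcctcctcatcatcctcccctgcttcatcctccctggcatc

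The first 90 coding bases, by contrast, hold 14 differences, marked by capitals, by which reads of this pair can be told apart:

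ULBP2: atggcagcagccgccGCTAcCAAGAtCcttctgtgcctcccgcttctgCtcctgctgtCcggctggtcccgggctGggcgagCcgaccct

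RAET1L: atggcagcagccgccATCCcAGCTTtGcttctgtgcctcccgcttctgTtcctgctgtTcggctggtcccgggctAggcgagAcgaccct

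For MICA and MICB the coding identity was 91.2%, and the longest identical run was 71 bases. Differences were spread more evenly, with 13 in the first 90 coding bases, again in capitals:

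MICA: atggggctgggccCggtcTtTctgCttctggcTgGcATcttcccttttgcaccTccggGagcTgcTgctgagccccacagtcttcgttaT

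MICB: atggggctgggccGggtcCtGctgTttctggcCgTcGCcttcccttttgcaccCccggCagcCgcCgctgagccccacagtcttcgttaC

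The share of each canonical transcript that recurs in another gene was counted in windows of 50 and 100 bases along all GENCODE 44 transcripts. For ULBP2, 32.6% of 50-base windows and 12.1% of 100-base windows were found elsewhere, all of them in RAET1L or RAET1G. ULBP3 had 11.1% and 4.15%, partly in RAET1K and ULBP1 and partly in many genes outside the family. ULBP1 had 8.13% and 1.12%. MICA and MICB had 2.50% and 2.87% of their 50-base windows in each other or in other transcripts of the MHC, among them MIC pseudogenes, and no shared 100-base window. NECTIN1, NECTIN3 and NECTIN4 had no shared window of either size.

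PVR had the highest share, 35.7% of 50-base and 34.3% of 100-base windows. Most of it was a gene model on the same strand that lies within PVR (chr19:44664131-44666158), which GENCODE 44 lists as awaiting experimental support. How the authors' counting treated such overlaps is not given in the sources used here. The levels of PVR and ULBP2 in particular may thus depend on how shared reads were assigned, and so may the place of PVR in the order. The part of shared reads in these values was not tested.

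**Figure D3:**
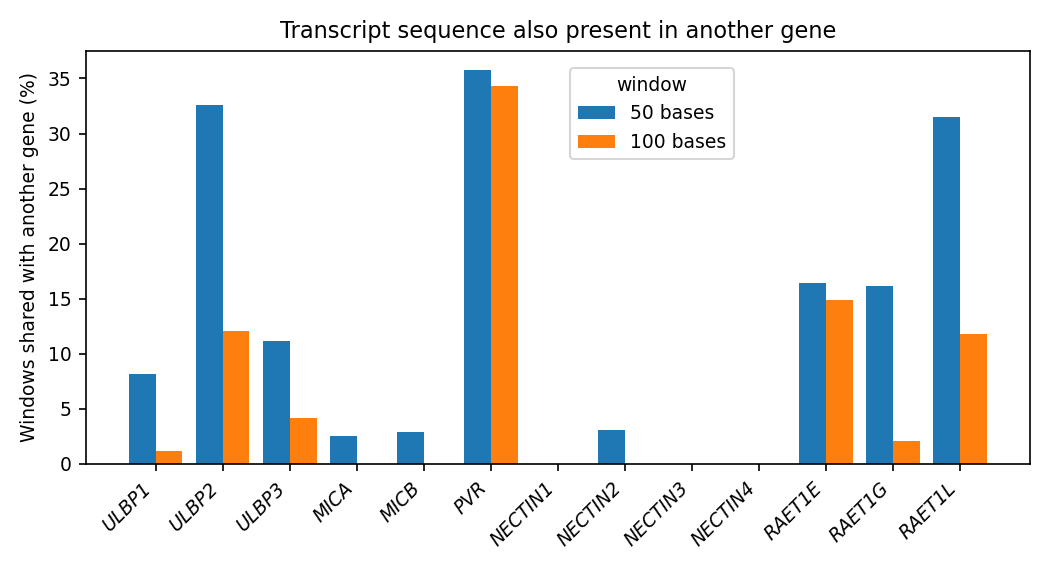
Percent of 50-base and 100-base windows of the canonical transcript that also occur in a transcript of another gene, for the 10 genes and the 3 further NKG2D ligands. PVR (35.7%) and ULBP2 (32.6%) have the highest shares of 50-base windows among the 10 genes, and NECTIN1, NECTIN3 and NECTIN4 have none.

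WDR5 is a subunit of the complexes that place H3K4 trimethylation at promoters, and promoter sequence is therefore given as context for the 10 genes. The RefSeq promoter windows on GRCh38.p14 hold 250 bases before and 50 after the start that RefSeq gives for each gene, and 9 of the 10 genes matched. This start is not always that of the GENCODE 44 gene given above, and it lies 3.81 kb further in for MICA, 3.26 kb for MICB and 1.75 kb for NECTIN3. NECTIN1 had no match. NECTIN3 had 36 CpG dinucleotides in its window, as many as or more than 88.7% of 35116 promoters. ULBP3 and PVR had 27 each, and ULBP1 and NECTIN2 had 26 each. NECTIN4 had the fewest of the 9, with 10 CpG against a median of 14 over all promoters. MICA, MICB and ULBP2 lay between, with 21, 20 and 19.

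The promoters of MICA and MICB were identical at 81.7% of aligned positions, against 54.7% or less for any other pair of NKG2D ligands. Both held the letters GAANNTTC, the core of a heat shock element, which 6.77% of all promoters hold on either strand. Each stretch is shown on the plus strand of GRCh38.p14 with the core in capitals, 135 to 128 bases before the RefSeq start in MICA and 139 to 132 bases before it in MICB:

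MICA, chr6:31403440-31403487: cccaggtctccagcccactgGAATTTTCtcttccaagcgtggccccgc

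MICB, chr6:31497986-31498033: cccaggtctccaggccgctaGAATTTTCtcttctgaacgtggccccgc

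The letters TGANTCA, a loose form of the AP-1 site held by 7.71% of all promoters, were found in ULBP2 and ULBP3. Both matches read TGATTCA, with T at the open position and not the C or G of the AP-1 consensus. The κB motif, held by 5.91% of all promoters, matched in none of the 9 windows. TGACG, the short form of the cAMP response element, was found in ULBP1, ULBP2 and NECTIN2, with 3 matches each in ULBP1 and ULBP2, and it is held by 24.6% of all promoters. NECTIN2 alone held the full element TGACGTCA, which contains the short form on both strands and is held by 1.85% of all promoters. GC boxes (GGGCGG) were found in 8 of the 9 windows, all but PVR, and in 44.95% of all promoters. These matches describe letters within short windows and not binding.

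The genes around these ligands were read from lists of known function. Of 10 listed NK and T cell receptor genes, 6 had a value, and all 6 were at or near 0. Their mean normalized counts ranged from 0.267 for KLRD1 to 3.62 for CD226, the DNAM-1 receptor itself. KLRK1, which encodes NKG2D, and TIGIT, PVRIG and NCR1 were not found under these symbols among the genes with a value.

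Partners of the nectins were present at a wide range of levels. AFDN, which encodes afadin, had a mean normalized count of 1948. The cadherins, which join nectins at adherens junctions, were represented by CDH2 (N-cadherin) at 4093 and CDH1 (E-cadherin) at 59.6, a ratio of 48.6 per kb. CTNNA1 and CTNNB1, the α- and β-catenins that link cadherins to actin, were at 11119 and 10518. CTNND1, the other listed catenin gene, was far lower, at 169 and the 49.2 percentile. Among the nectin-like CADM genes, CADM1 was at 1312 and CADM3 at 1.12.

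Enzymes known for the release of ligands from the cell surface had high levels throughout. The proteases ADAM10 and ADAM17 had mean normalized counts of 4638 and 3392, MMP14 had 14020 and ADAM9 had 40096. PDIA6, a disulfide isomerase that takes part in MICA shedding, had 13820. Per kb of all exons together, PDIA6, MMP14 and ADAM9 lay above all of the 10 genes. On this scale ADAM10 and ADAM17, with 290 and 212 per kb, lay below MICB and above MICA. Without division, ADAM10 and ADAM17 lay above both MIC genes, and the other lengths were not tried for these enzymes. Of the ligands of other NK receptors, NCR3LG1 (B7-H6, ligand of NKp30) was at 938, and its level per kb was 2.57-fold below that of MICB. BAG6, also a ligand of NKp30, was at 6101, and its 965 per kb lay above all of the 10 genes. CLEC2B, ligand of NKp80, was at 0.542. HLA-E, ligand of the inhibitory receptor NKG2A, was at 12339.

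**Figure D4:**
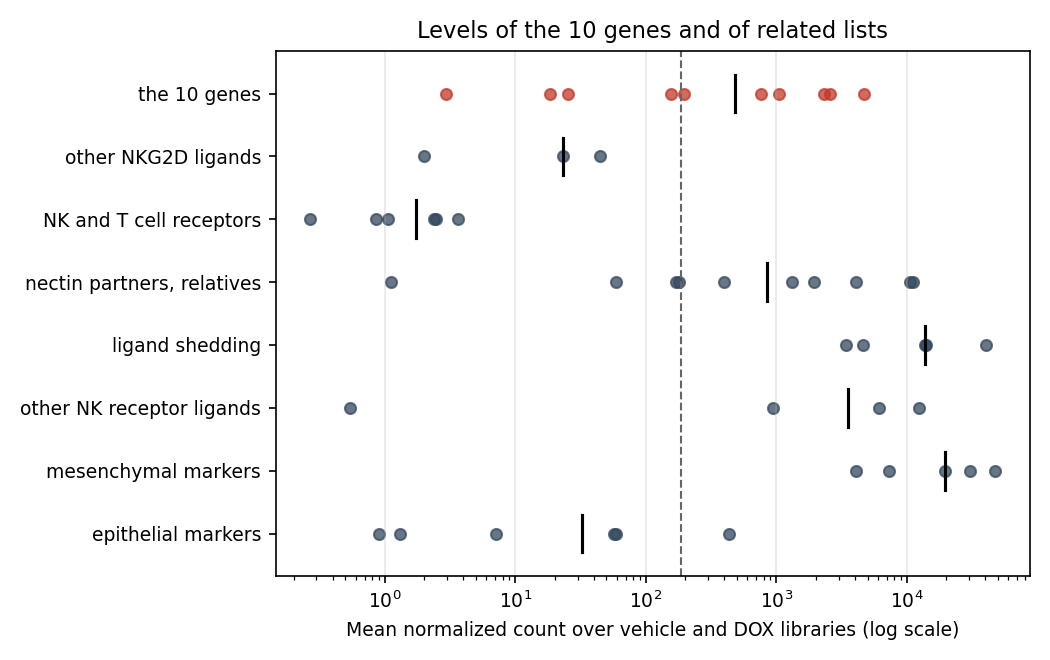
Mean normalized count (log axis) of the 10 genes and of related lists, 1 point per gene with a value, and a short black line at each list's median. The 6 NK and T cell receptors lie between 0.267 and 3.62, below all of the 10 genes except NECTIN4, and the dashed line is the median of all genes.

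The labelled cell line was checked against markers. The 5 mesenchymal markers had mean normalized counts from 4093 to 47782, with VIM the highest, and the 6 epithelial markers from 0.909 to 435, with EPCAM at 1.30. The hormone receptor genes ESR1 and PGR were at 0.790 and 0.801, whereas ERBB2 was at 1221. Of the blood cell markers, PTPRC was at 44.7 and CD14 at 24.0, and their part in the levels of the 10 genes was not tested. WDR5, the target of the shRNA, had a mean normalized count of 1143 over both groups together, which does not show its loss with DOX.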

How the data were processed

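Gene expression was measured by RNA-seq in the WDR5 shRNA line of BT-549 in 2 groups, vehicle and DOX, with 3 cultures each. By the paper's methods, the authors aligned stranded poly(A) reads to GRCh38 with STAR and normalized and compared counts with DESeq2. The paper writes the genome with a suffix that may stand for an annotation release. The gene counter is not given in the sources used here. No symbol in the table begins with PVRL, the older name of the nectins (0 found). The deposited value used is the mean normalized count, a signal that the authors averaged over all 6 libraries, summing to 26551206 over 19792 genes. The other columns hold the authors' comparison of DOX with vehicle (log2 fold change, its standard error, a Wald statistic, p-value and adjusted p-value) and were not used. Depth per library is unknown, and 0 columns hold values of a single library. The count test that the design names for such columns was therefore not run, and nor were its alternatives.

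A percentile is the percent of genes in the table at or below a level. Levels were divided by lengths from GENCODE 44, to which 17571 symbols matched, 15151 of them protein coding. Coding and promoter sequences were aligned globally, and motifs were searched on both strands. The genes named were the 10 members and the fixed lists of functions and markers, of which 1 marker is not reported here. Members and lists were chosen with earlier results of these data known. The alignment identity, window and percentile functions were tested on made-up data. The motif search, the CpG counts and the search along all transcripts were not tested in this way. Python 3.11.15, numpy 2.4.6, pandas 2.3.3, matplotlib 3.10.9 and Biopython 1.88 were used.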

Additional observations from a re-analysis of the deposited data

How the results depend on the processing

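No paired analysis was possible because the columns used carry no replicate, and leaving out a replicate, other normalizations and other tests were not run for the same reason. With no spread to compare with, any shift is given as a value. The median percentile of the 10 genes was 59.1 among all genes, 52.8 among genes at 10 or more (9 members) and 49.1 among protein coding genes. The share of the NKG2D ligands' sum in MICA and MICB was 89.1% per length in place of 90.1%.

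The log2 ratio of NECTIN2 over PVR per kb was 0.60 with all exons, 0.39 with the longest transcript, 0.23 with the canonical transcript (a length added after seeing the data), -1.17 with the coding length and -0.88 without division. For MICB over MICA it was 0.93, 0.37, -0.35, 0.26 and 0.47 in the same order. Other neighbours in the order also changed places. MICB over NECTIN3 went from 0.32 to -0.038 with the longest transcript and the canonical transcript, -0.62 with the coding length and -1.14 without division. NECTIN3 over MICA was -0.31 with the canonical transcript, ULBP1 over NECTIN1 was -0.32 without division, and ULBP2 over ULBP3 was -0.47 with the coding length and -0.45 without division. No cause was tested.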
